A study of Mus musculus with 12 samples.

Results

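Hepatocyte RNA of mice taken 4 days after an injection of tumour cells was compared with that of mice taken 4 days after an injection of PBS, over every gene with a mean of at least 10 normalized counts in these 6 libraries. The rule kept 12038 of the 15910 genes of the deposited table and 6 of the 12 libraries. The tumour mice had received 4T1 breast cancer cells orthotopically, and the PBS mice an injection of PBS. Both groups held 3 female Balb/c mice that were 8 weeks old. The other libraries came from 3 tumour mice and 3 PBS mice of day 21. Each library was a separate mouse, so the p-values below measure the spread between mice. Syngr1, at a mean of 10, was the gene just inside the threshold, and Bmp7, at 9.99, the gene just outside it.

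4T1 is a mammary carcinoma line of Balb/c origin that grows in mice with an intact immune system. The liver answers inflammatory signals from elsewhere in the body with the acute-phase response. In it, hepatocytes respond to interleukin-6 and related cytokines and activate the transcription factor STAT3. They secrete plasma proteins such as haptoglobin, serum amyloid A and fibrinogen. Cells that secrete large amounts of protein also use the unfolded protein response, which raises chaperones of the endoplasmic reticulum (ER) when client proteins accumulate there. The nuclear receptor PPARalpha belongs to the cycle of feeding and fasting, since it drives fatty acid oxidation when food is short.

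The 6 libraries held 13421218 to 19634259 recovered reads. All 15 hepatocyte markers were in the table, and the list's mean log2 level was 15.79, 15.72 and 15.72 in tumour mice, against 15.96, 15.80 and 15.47 in PBS mice. The albumin share of recovered reads ran between 9.52% and 13.9%. RNA was taken from dissociated hepatocytes after liver perfusion, and other liver cells were still represented. Summed normalized counts of the 16 Kupffer cell and macrophage markers were 8052, 10523 and 4909 in tumour mice, against 5758, 6634 and 8695 in PBS mice, so tumour replicate 3 and PBS replicate 4 were the lowest of their groups. Of the 15 tested, 13 were lower in tumour mice, with a median log2 fold change of -0.29. That direction depended on tumour replicate 3, since all 15 were higher without it. The median was -0.70 to 0.44 under the alternatives tried. It changed sign without tumour replicate 3, and in edgeR and DESeq2 on the recovered reads of all 6 libraries. In every one of the 6 libraries, the day 4 library most like it by Pearson correlation belonged to the other group. The leading principal component took 34.7% of the variance and separated tumour replicate 2 from PBS replicate 5. The next took 28.0% and set tumour replicate 3 and PBS replicate 4 apart from the other 4 libraries.

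Gene by gene, no difference passed the test. Limma called 0 of the 12038 genes (0.0%) at a Benjamini-Hochberg adjusted p under 0.05, and the smallest adjusted p was 0.983. At an unadjusted p under 0.05 there were 471 genes (3.91%), of which 198 were higher and 273 lower in tumour mice. EdgeR on the recovered reads also called 0 genes (0.0%), with 480 at an unadjusted p under 0.05. DESeq2 on the same reads called 6 (0.0498%), with 481 at an unadjusted p under 0.05. The 3 tumour values lay above all 3 PBS values for 567 genes (4.71%) and below them for 519 (4.31%). In either direction that made 1086 genes (9.02%), and the counts of list members without overlap below are to be read beside these shares. The 95% interval of a gene's log2 fold change reached a median of 0.52 to either side. It lay wholly between -1 and 1 for 8607 genes (71.5%), so a 2-fold difference lay outside the interval of most genes. Values given per mouse below are normalized counts in the order of the replicates. Every fold change compares tumour over PBS as a difference of means of log2(value + 1).

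The genes that DESeq2 called higher in tumour mice were Lcn2, Orm3, Fgl1 and Mphosph10. Lcn2 encodes lipocalin-2, which binds bacterial siderophores (ENSMUSG00000026822, GRCm38 chr2:32384633-32388252, minus strand). It had 1999.9, 3585 and 968 in tumour mice, against 318, 295 and 401 in PBS mice, a difference of 2.50 (SE 0.42) and the largest of these 4. DESeq2 gave it an adjusted p of 5.63e-09, against 0.983 in limma, and without tumour replicate 3 limma gave 0.0184. Orm3, an orosomucoid gene (ENSMUSG00000028359, GRCm38 chr4:63356162-63359511, plus strand), had 291, 281 and 178 in tumour mice, against 75.1, 99.2 and 123 in PBS mice, and its DESeq2 adjusted p was 0.0229. Fgl1, a secreted fibrinogen-like protein of hepatocytes (ENSMUSG00000031594, GRCm38 chr8:41191434-41215156, minus strand), had 20593, 29029.6 and 12726 in tumour mice, against 6987, 6471 and 10723 in PBS mice. Mphosph10, a component of the U3 small nucleolar ribonucleoprotein that processes ribosomal RNA (ENSMUSG00000030521, GRCm38 chr7:64376527-64392268, minus strand), had 339.8, 314 and 291 in tumour mice, against 179.8, 151 and 129 in PBS mice. The values of tumour and PBS mice did not overlap for any of these genes. DESeq2 gave Fgl1 and Mphosph10 the same adjusted p of 0.0229.

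The 2 genes that DESeq2 called lower were Krt23 and Erbb3. Erbb3 encodes a receptor of the epidermal growth factor family that binds neuregulins (ENSMUSG00000018166, GRCm38 chr10:128567523-128589652, minus strand). It had 1221, 1006 and 1428 in tumour mice, against 2287, 2244 and 2143 in PBS mice, a difference of -0.88 (SE 0.18), with a DESeq2 adjusted p of 0.0458. Krt23, a type I keratin (ENSMUSG00000006777, GRCm38 chr11:99477974-99493137, minus strand), had 41.7, 19.7 and 43.3 in tumour mice, against 177, 93.6 and 101 in PBS mice, a difference of -1.82 (SE 0.38) and a DESeq2 adjusted p of 0.0229. Krt23 had 0.81, 0 and 5.34 in tumour mice of day 21, against 86.3, 179 and 86.3 in PBS mice of day 21, and limma called it lower there (log2 fold change -5.62, adjusted p = 0.00136).

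Among non-overlapping genes whose mean reached 50, the 12 with the smallest p in each direction were taken as a description, since the choice itself fixed their direction. On the higher side stood, beside the 4 above, Rcan1, Tuba1c, Gimap9, Dnajb11, Sdf2l1, Ttpal, Creld2 and Nop58. Rcan1, a regulator of the phosphatase calcineurin, had 542, 544 and 611 in tumour mice, against 337, 338 and 384 in PBS mice. Tuba1c, an alpha-tubulin, had 352, 577 and 484 in tumour mice, against 142, 141 and 298 in PBS mice, and PBS replicate 6 stood above the other PBS mice. Gimap9, of a family of GTPases best known from lymphocytes, had 132, 244 and 204 in tumour mice, against 72.4, 86.8 and 106 in PBS mice. Dnajb11, Sdf2l1 and Creld2 are ER proteins, described below with their list. On the lower side stood, beside Erbb3 and Krt23, Tcp11l2, Fnip2, Cpeb2, Ppara, Tenm3, Rassf5, Khnyn, Cyp4a32, Pnrc1 and Bmf. Fnip2, a partner of the tumour suppressor folliculin, had 516, 419.9 and 455 in tumour mice, against 844, 839.8 and 734 in PBS mice. Cpeb2, which binds the polyadenylation element of mRNAs, had 326, 322 and 362 in tumour mice, against 596, 847 and 518 in PBS mice. Bmf, a BH3-only protein that promotes cell death, had 92.6, 35.6 and 46.8 in tumour mice, against 144, 229 and 112 in PBS mice. The 3 PBS mice of day 21 were then set beside each gene. Of these 24 genes, tumour values of day 4 lay beyond all 6 PBS values for Mphosph10, Lcn2, Orm3, Fgl1, Rcan1, Dnajb11, Ttpal and Nop58 on the higher side, and for Erbb3, Krt23, Cpeb2, Tenm3, Rassf5, Khnyn and Pnrc1 on the lower side. Ttpal had a log2 fold change of 0.68. Tcp11l2, Tenm3, Rassf5, Khnyn and Pnrc1 had -0.996, -0.70, -0.76, -0.85 and -0.78 on the same scale. Over all genes that position beyond 6 PBS mice held for 269 (2.23%) higher and 226 (1.88%) lower. The 24 genes were already chosen for lying beyond the 3 PBS mice of day 4, so non-overlapping genes are their base. Those were 567 on the higher side, of which the 269 are a part, and 519 on the lower side, of which the 226 are a part.

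**Figure D1:**
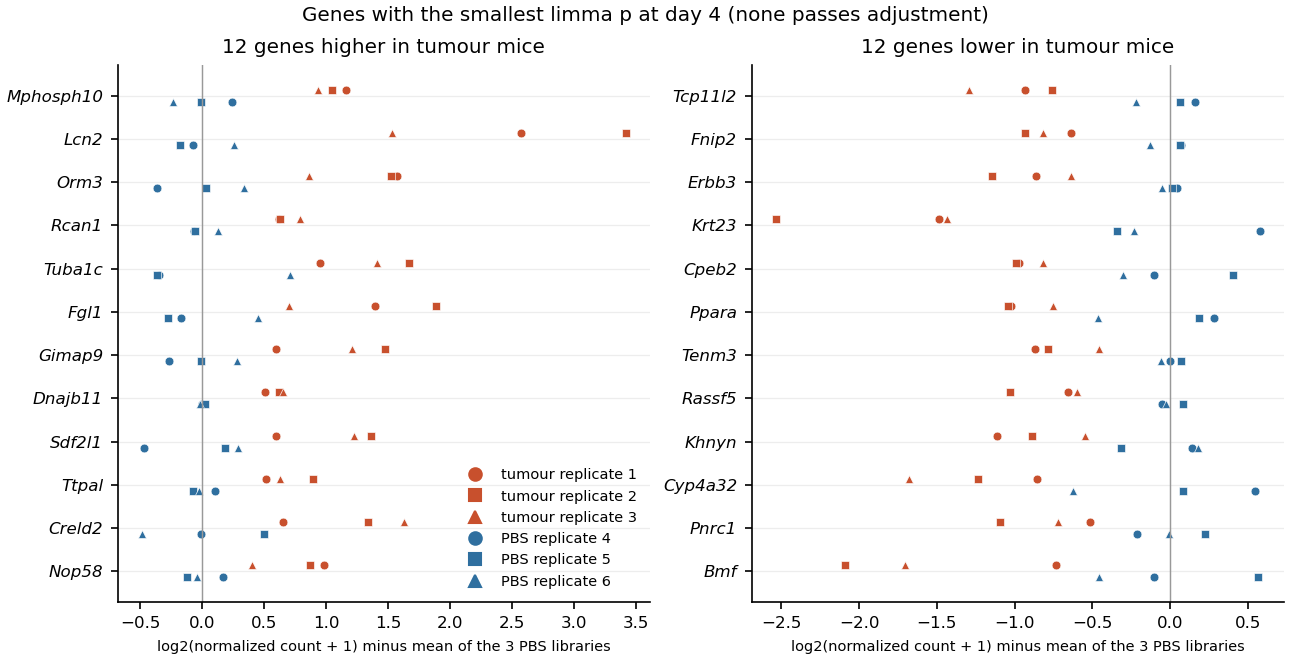
The 12 genes higher and 12 genes lower in tumour mice with the smallest limma p among non-overlapping genes whose mean reached 50, drawn as log2(normalized count + 1) minus the mean of the 3 PBS libraries, 1 point per mouse. Tumour points lie on 1 side of PBS points in each row because genes were chosen that way; Lcn2 has the widest gap between the group means on the left and Krt23 on the right.

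Acute-phase genes were mostly higher in tumour mice. All 33 listed genes were tested, and 28 had a higher mean log2 level in tumour mice, against 45.7% of all genes (54.3% were lower). The median log2 fold change was 0.60, beside -0.03 over all genes. Tumour and PBS values did not overlap for 12 members on the higher side (4.71% of all genes) and for 0 on the lower side (4.31% of all genes). None was called by limma. The list's mean log2 level was 12.80, 12.88 and 12.25 in tumour mice, against 12.02, 11.92 and 12.13 in PBS mice, so each tumour mouse stood above each PBS mouse. Tumour replicate 2 held the highest value of 20 members and tumour replicate 1 of 10. PBS replicate 5 held the lowest of 19. Without tumour replicate 3, the groups did not overlap for 25 members on the higher side. Without tumour replicate 2 the count was 12, as with all 6 libraries. Without PBS replicate 4 it was 19. With 1 mouse left out fewer values have to separate, so such counts can rise in any list. Constitutive plasma proteins, described below, had 0 with all 6 libraries. They had 7 without tumour replicate 3, 1 without tumour replicate 2 and 11 without PBS replicate 4. The share over all genes with a mouse left out is not given here.

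By role, the carriers and scavengers included Lcn2, the orosomucoids and the binders of haemoglobin and haem. Hp, haptoglobin, which binds free haemoglobin (ENSMUSG00000031722, GRCm38 chr8:109575128-109579172, minus strand), had 48743, 53450.0 and 38615 in tumour mice, against 31302, 26196 and 27346 in PBS mice, a difference of 0.72 (SE 0.20). Hpx, hemopexin, which binds haem, had 112695, 136842 and 69926 in tumour mice, against 71410.3, 49604 and 78886 in PBS mice, and tumour replicate 3 lay below 2 of the PBS mice. Orm1 had 16976, 15537 and 10669 in tumour mice, against 8426, 8344 and 10969 in PBS mice; here the groups overlapped through tumour replicate 3 and PBS replicate 6. Orm2 had 1114, 1289 and 688 in tumour mice, against 322, 233 and 857 in PBS mice, again with PBS replicate 6 above tumour replicate 3. Orm1, Orm2 and Orm3 are similar in sequence, and reads between them may be split or lost in counting.

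The pentraxin and amyloid genes had wider gaps and wider spread. Saa1, serum amyloid A, had 1363, 2841 and 649 in tumour mice, against 235, 184 and 812 in PBS mice, a difference of 2.05 (SE 0.72). Saa2, a near copy whose reads cannot be told apart with certainty, had 540.1, 1525 and 241 in tumour mice, against 105, 73.3 and 389.8 in PBS mice. PBS replicate 6 lay above tumour replicate 3 in both. Saa4, the constitutive member, had 6712, 10543 and 6486 in tumour mice, against 6505, 4019.9 and 4237 in PBS mice, which overlapped through PBS replicate 4. Apcs, serum amyloid P component, the main pentraxin of the mouse acute phase, had 11678, 13818 and 7679 in tumour mice, against 5294, 6276 and 7137 in PBS mice with no overlap. Crp, the related C-reactive protein that is a weak acute-phase protein in mice, had 9040.1, 10066 and 8041 in tumour mice, against 9490.3, 7381 and 6682 in PBS mice and overlapped.

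Of the clotting and protease inhibitor genes, the fibrinogen chains had higher values in all tumour mice for 2 of 3. Fgb had 96222, 144812 and 82157 in tumour mice, against 72225, 53579 and 80603 in PBS mice, and Fgg had 83032, 126776 and 67484 in tumour mice, against 60085, 49150.4 and 64739 in PBS mice. Fga had 91553, 141407 and 77949 in tumour mice, against 83161, 56032 and 77147 in PBS mice, with PBS replicate 4 above tumour replicate 3. Itih3 and Itih4, of the family of inter-alpha inhibitor heavy chains, did not overlap, with log2 fold changes of 0.70 and 0.39. Serpina10, an inhibitor of clotting factor X, had 0.60 with no overlap. Serpina3k and Serpina3m, of a cluster of near-identical inhibitors, had 0.27 and 0.29 and overlapped. Lbp, which hands bacterial lipopolysaccharide to its receptors, had 2910.3, 3574 and 2539.8 in tumour mice, against 2195, 1656 and 1841 in PBS mice. Lrg1, a leucine-rich glycoprotein of plasma, had 11963, 8633 and 5826 in tumour mice, against 3625, 5816 and 4209 in PBS mice, and the gap between tumour replicate 3 and PBS replicate 5 was narrow.

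Of the 5 members with a lower mean in tumour mice, Il1rn, Hamp and Mt1 had the largest differences, with log2 fold changes of -0.67, -0.24 and -0.24. Il1rn, the interleukin-1 receptor antagonist, had 67.1, 78.6 and 80.7 in tumour mice, against 170.4, 144 and 71.3 in PBS mice. Hamp, hepcidin, the hormone that blocks iron export, had 14172, 7589 and 12716 in tumour mice, against 8102, 17126 and 16265 in PBS mice. Mt1, a metallothionein that binds zinc, had 13844, 2957 and 5112 in tumour mice, against 4619, 11309 and 6596 in PBS mice, so it ranged more within the tumour group than between the group means. All 5 overlapped.

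**Figure D2:**
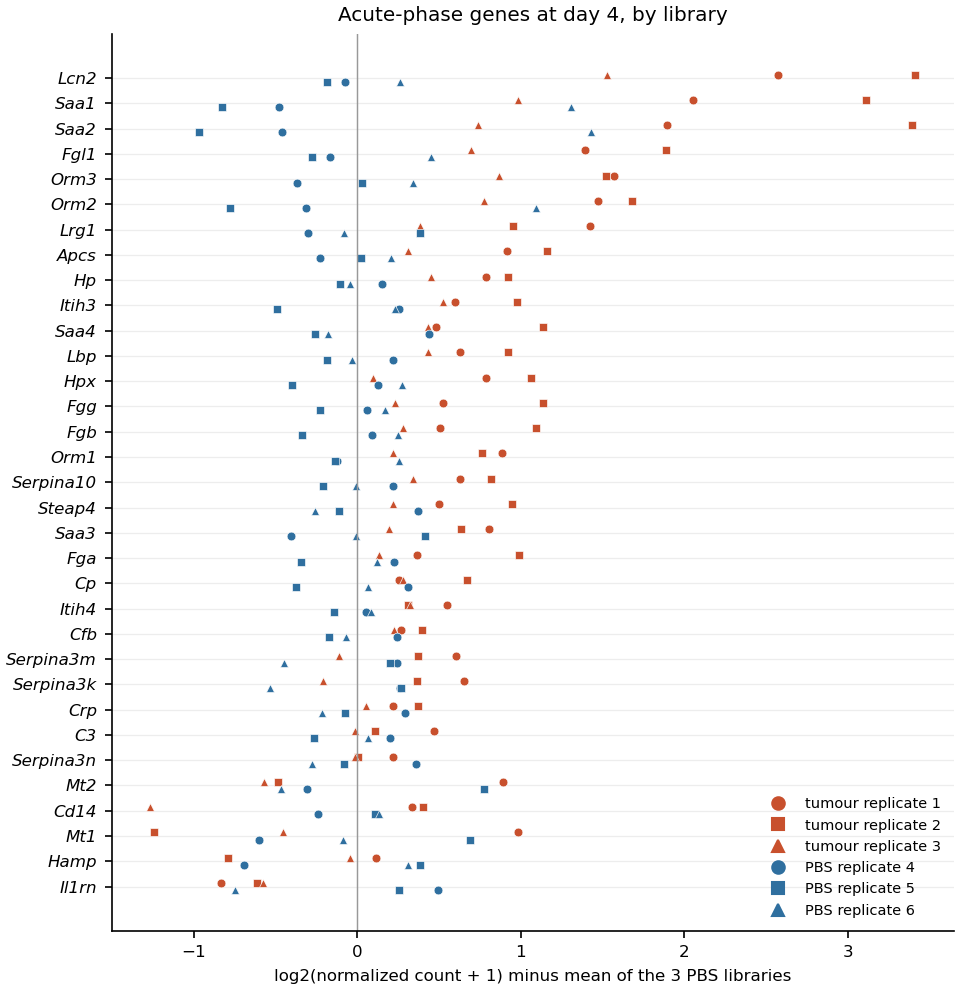
The 33 acute-phase genes in order of log2 fold change, as log2(normalized count + 1) minus the mean of the 3 PBS libraries, 1 point per mouse. Points of tumour replicate 2 (squares) and replicate 1 (circles) lie to the right in the upper rows, and tumour replicate 3 (triangles) often lies near PBS replicate 6.

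The genes of the pathway upstream had no common direction. Of 19 tested members of the IL-6 and STAT3 list, 8 were higher and 11 lower, with a median of -0.04. Stat3 itself had 2025, 2613 and 2351 in tumour mice, against 1752, 1744 and 1729 in PBS mice, a difference of 0.41 (SE 0.16) and the only member without overlap. At day 21 limma called Stat3 higher (1.23, adjusted p = 0.00136). Socs3, the feedback inhibitor of the receptor, had 575, 386 and 143 in tumour mice, against 192, 563 and 507 in PBS mice. Il6ra, the receptor chain, had 1432, 904 and 2243 in tumour mice, against 2517, 2917 and 799.7 in PBS mice. Socs3 and Il6ra varied between mice of a group more than between the groups. The 23 tested NF-kB targets and chemokines had a median of -0.06, with 0 members free of overlap in either direction. Complement and coagulation genes had 29 of 36 higher with a median of 0.13, and 3 without overlap (8.33%, near the 9.02% of all genes in either direction). Among those, C8a and C9, subunits of the membrane attack complex, had log2 fold changes of 0.89 and 0.71. Constitutive plasma proteins, which hepatocytes secrete without inflammation, had a median of 0.07 and 0 without overlap.

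Lcn2 is also a gene of neutrophils, and the neutrophil markers were read beside it. Of 16 listed, 5 were tested. Without Lcn2 the summed normalized counts of the other 15 were 84.4, 357 and 25.7 in tumour mice, against 121, 51.9 and 44.9 in PBS mice. Tumour replicate 2 was the highest and tumour replicate 3 the lowest of the 6. S100a9, an abundant neutrophil protein, had 24.4, 130.2 and 5.85 in tumour mice, against 30.9, 6.76 and 6.97 in PBS mice. Ly6g, a defining surface marker, was at 2.03, 1.23 and 0 in tumour mice, against 0, 0 and 0 in PBS mice. Their part in the Lcn2 values of day 4 was not tested. Of the 14 mammary carcinoma markers, 4 were tested, and Krt5 and Krt14 are not analysed here. Of the 11 other than Lcn2, Krt8 and Krt18, 1 is in the table, at 8.14, 3.68 and 8.19 in tumour mice, against 37.6, 13.5 and 5.42 in PBS mice.

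ER chaperone genes were the next group with a higher level in every tumour mouse. Of 26 tested members of the chaperone and unfolded protein response list, 20 were higher and 6 lower, with a median of 0.30. The groups did not overlap for 7 on the higher side and 0 on the lower side (26.9% in either direction, beside 9.02% of all genes). None was called by limma. The list's mean log2 level was 11.04, 11.33 and 11.27 in tumour mice, against 10.92, 10.99 and 10.75 in PBS mice. Under the alternatives tried the median was 0.23 to 0.39. Without tumour replicate 1 or PBS replicate 4, 13 members did not overlap on the higher side. Without PBS replicate 5 there were 11, and without each of the other libraries there were 7. As said for the acute-phase list, leaving out a mouse can raise such counts in any list.

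The chaperones that fold proteins in the ER had the larger differences. Hspa5 encodes BiP, the central ER chaperone (ENSMUSG00000026864, GRCm38 chr2:34771970-34777547, plus strand), and had 9997, 17367 and 14406 in tumour mice, against 8924, 7317 and 7352 in PBS mice, a difference of 0.79 (SE 0.23). Dnajb11, a co-chaperone of BiP (ENSMUSG00000004460, GRCm38 chr16:22857845-22879634, plus strand), had 1360.0, 1471 and 1497 in tumour mice, against 953, 967 and 945 in PBS mice, with a narrow spread in both groups. Sdf2l1, which works with that co-chaperone (ENSMUSG00000022769, GRCm38 chr16:17130138-17132383, minus strand), had 239, 406 and 369.7 in tumour mice, against 114, 179 and 193 in PBS mice. Creld2, an ER protein that can also be secreted (ENSMUSG00000023272, GRCm38 chr15:88819646-88826683, plus strand), had 432, 696 and 852 in tumour mice, against 272, 389 and 196 in PBS mice, a difference of 1.21 (SE 0.30). None of these overlapped. Pdia3, a disulfide isomerase for glycoproteins, had 7373, 9099 and 8032 in tumour mice, against 5947, 4673 and 5691 in PBS mice, and Calr, the lectin chaperone calreticulin, had 14024, 16371 and 14596 in tumour mice, against 10416, 10687 and 10716 in PBS mice, both without overlap. Manf and Hyou1, 2 further ER proteins of the response, had log2 fold changes of 0.77 and 0.78 and overlapped through PBS replicate 5.

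The sensors and the degradation branch overlapped between the groups. Atf6, a sensor of the response, had 1091, 1230.3 and 1514 in tumour mice, against 1693, 1151 and 1279 in PBS mice. Xbp1, the factor that is spliced on activation, had 3689, 2948 and 2757 in tumour mice, against 1829.9, 3056 and 2962 in PBS mice; the table counts genes, so splicing was not measured. Herpud1, of the degradation branch, had 9457, 6375 and 11388 in tumour mice, against 13897, 16737 and 6098 in PBS mice. PBS replicates 4 and 5 were the highest of the 6 for Herpud1. The 15 tested members of the ATF4 list, the branch that answers amino acid shortage and eIF2 phosphorylation, had a median of 0.06. There Chac1 had 67.1, 46.7 and 73.7 in tumour mice, against 109, 216 and 73.6 in PBS mice and Trib3 had 76.3, 70.0 and 106 in tumour mice, against 89.9, 254 and 151 in PBS mice, with log2 fold changes of -0.96 and -0.86. Secretory translocation and vesicle coat genes had 34 of 48 higher and a median of 0.09. There were 8 without overlap on the higher side (16.7%, beside 9.02% of all genes in either direction).

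The ER stress element, to which the factors ATF6 and NF-Y bind, was looked up in the promoters of these genes to show what the group shares in sequence. The motif searched was CCAAT, a spacer of 9 bases of any kind and CCACG, on both strands, in RefSeq windows (GRCm38.p6) of 300 bases, from 250 before to 50 after each gene's start. It was found in 9 of the 22 list members with a window and in 16 of the 9174 tested genes with a window (0.174%). The windows of Hspa5 (chr2:34771840-34772139, plus strand) and Creld2 (chr15:88819396-88819695, plus strand) are printed 5′ to 3′, with the match in capitals. Both genes were without overlap in the comparison above. In Creld2 the match reads on the opposite strand.
Hspa5: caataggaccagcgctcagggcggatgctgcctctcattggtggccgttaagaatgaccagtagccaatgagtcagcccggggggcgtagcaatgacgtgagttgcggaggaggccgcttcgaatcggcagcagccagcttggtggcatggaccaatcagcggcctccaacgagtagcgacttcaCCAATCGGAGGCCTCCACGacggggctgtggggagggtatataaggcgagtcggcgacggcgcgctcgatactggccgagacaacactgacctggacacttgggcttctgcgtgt
Creld2: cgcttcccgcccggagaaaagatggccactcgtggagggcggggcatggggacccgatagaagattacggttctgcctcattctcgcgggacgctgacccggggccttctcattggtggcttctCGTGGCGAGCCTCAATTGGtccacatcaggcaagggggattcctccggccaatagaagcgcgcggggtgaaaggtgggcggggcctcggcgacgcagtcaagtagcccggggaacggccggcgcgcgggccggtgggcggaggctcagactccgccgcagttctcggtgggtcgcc
The match begins 65 bases before the RefSeq start in Hspa5 and 126 bases before it in Creld2. For Hspa5 that start lies downstream of the GENCODE start printed above, and for Creld2 the starts are the same. Of all 16 genes with the element, 13 were higher in tumour mice and 4 of them without overlap, with a median log2 fold change of 0.41. Over all genes, 45.7% were higher and 4.71% were without overlap on that side. Because 9 of the 16 are the list members already described, this largely repeats the list. The 7 that are not on the list had 5 higher and 1 without overlap. Their median of 0.49 was the value of Acnat2, which overlapped. Spats2l, picked from these after its values were seen, had 56.0, 93.3 and 57.3 in tumour mice, against 26.8, 30.4 and 47.3 in PBS mice and no overlap. List members with a match had a median of 0.40 and those without had 0.20. A match describes the letters in these windows and is not evidence of binding.

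Interferon response genes were mostly higher, with smaller differences. Of 42 tested members, 32 were higher and 10 lower, with a median of 0.26 (range 0.20 to 0.36 under the alternatives). The groups did not overlap for 6 on the higher side and for 1 on the lower (16.7% in either direction, beside 9.02% of all genes). None was called by limma. The library means were 8.19, 8.17 and 7.86 in tumour mice, against 7.66, 7.81 and 8.10 in PBS mice, so PBS replicate 6 stood above tumour replicate 3. Without PBS replicate 6, 22 members did not overlap on the higher side, and without tumour replicate 3 there were 12. Such counts can rise in any list when a mouse is left out, and the share over all genes is not given for these settings. Mx2, of a family of antiviral GTPases but annotated as a polymorphic pseudogene (ENSMUSG00000023341, GRCm38 chr16:97535308-97560900, plus strand), had 99.7, 153 and 146 in tumour mice, against 85.9, 50.7 and 86.0 in PBS mice. Igtp, a GTPase that acts on vacuoles of intracellular pathogens (ENSMUSG00000078853, GRCm38 chr11:58199556-58207591, plus strand), had 1140.3, 936 and 735 in tumour mice, against 597, 573 and 735 in PBS mice, where tumour replicate 3 and PBS replicate 6 were almost equal. Isg15, a ubiquitin-like modifier, had 133, 135 and 109 in tumour mice, against 51.0, 71.0 and 119 in PBS mice and overlapped. Rsad2, the antiviral protein viperin, was the member below all PBS mice, with 60.0, 49.1 and 43.3 in tumour mice, against 60.4, 73.3 and 63.5 in PBS mice.

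The core letters of the interferon-stimulated response element, GAAA, a spacer of 2 bases of any kind and GAAA on either strand, were in the windows of 17 of 32 list members and in 3.79% of the tested genes with a window. Igtp is shown because it was among the members without overlap (chr11:58199306-58199605, plus strand, RefSeq GRCm38.p6), with the match in capitals.
Igtp: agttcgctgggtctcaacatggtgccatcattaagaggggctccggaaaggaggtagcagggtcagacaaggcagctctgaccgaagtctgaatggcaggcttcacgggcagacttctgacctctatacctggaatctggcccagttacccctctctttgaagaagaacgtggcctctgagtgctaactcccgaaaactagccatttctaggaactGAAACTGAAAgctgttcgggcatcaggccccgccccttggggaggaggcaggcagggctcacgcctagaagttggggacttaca
The match begins 34 bases before the RefSeq start. Members with a match had a median log2 fold change of 0.38 and members without had 0.20. All tested genes with the motif had a median of -0.0049, and those without it -0.02. The STAT motif TTCNNNGAA was in 6 of 24 acute-phase windows and in 8.38% of all. Acute-phase members with it had a median of 0.53, and those without it 0.64.

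Genes that build ribosomes were higher in small steps across a long list. Of 70 tested members, 57 were higher and 13 lower, with a median of 0.21. The groups did not overlap for 21 on the higher side and for 1 on the lower side (31.4% in either direction, beside 9.02% of all genes). None was called by limma. The list's mean log2 level was 8.50, 8.25 and 8.18 in tumour mice, against 8.13, 8.07 and 8.09 in PBS mice, so the groups did not overlap, with tumour replicate 1 well above the rest. Tumour replicate 1 held the highest value of 35 members. Without tumour replicate 1, 49 members were higher and 24 did not overlap on that side. Here too, a count without overlap can rise because a mouse is left out, and the share over all genes is not given for that setting.

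The small subunit processome and the box C/D particles held several of the larger differences. Beside Mphosph10, Nop58, a core protein of box C/D particles (ENSMUSG00000026020, GRCm38 chr1:59684971-59719044, plus strand), had 483, 448 and 323 in tumour mice, against 275, 224 and 237 in PBS mice. Rrs1, needed for the large subunit (ENSMUSG00000061024, GRCm38 chr1:9545408-9547455, plus strand), had 407, 341 and 319 in tumour mice, against 179.8, 281 and 215 in PBS mice. Nob1, the nuclease that makes the mature end of 18S RNA, had 174, 212 and 158 in tumour mice, against 114, 115 and 124 in PBS mice. Tsr1, a late factor of the small subunit, had 229, 229.6 and 161 in tumour mice, against 148, 106 and 137 in PBS mice. Wdr75, of the processome, had 271, 250.5 and 221 in tumour mice, against 185, 141 and 173 in PBS mice, and Polr1e, a subunit of RNA polymerase I, had 85.5, 88.4 and 70.2 in tumour mice, against 53.7, 49.6 and 56.6 in PBS mice. All of these were without overlap, with unadjusted limma p from 0.000285 for Mphosph10 to 0.0319 for Polr1e. At day 21 limma called Nop58 higher (0.80, adjusted p = 0.0373), while Mphosph10 had 0.49 (adjusted p = 0.155). Rcl1, a processome protein, was the member below all PBS mice, with 1950.0, 1752 and 1775 in tumour mice, against 2424, 2239 and 1973 in PBS mice, and limma called it lower at day 21 (-0.75, adjusted p = 0.0225). Myc, which drives this gene set, was on the list with 772, 35.6 and 35.1 in tumour mice, against 353, 790.2 and 314 in PBS mice and overlapped. The ribosomal proteins themselves did not share the direction: the 41 cytosolic ribosomal protein genes had a median of 0.03 and 0 without overlap.

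Heat shock genes of the cytosol had 18 of 20 higher and a median of 0.42. There were 3 without overlap (15%, beside 9.02% of all genes in either direction). The library means were 9.67, 10.05 and 10.36 in tumour mice, against 9.86, 9.79 and 9.14 in PBS mice, and PBS replicate 6 was the lowest for 15 members. Ahsa1, which activates Hsp90, had 1303, 1392 and 1516 in tumour mice, against 1266, 963 and 889.5 in PBS mice without overlap. Hsph1, a large heat shock protein, had 964, 2169.6 and 3107 in tumour mice, against 1669, 1109 and 418 in PBS mice, and Hspa1b, the inducible Hsp70, had 58.0, 273 and 532 in tumour mice, against 262, 336 and 24.8 in PBS mice, so both varied more within the groups than between them. Hspa1b has a near-identical neighbour, and its reads may be split. Tumour replicate 3 was highest for 13 members.

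On the lower side, PPARalpha and its inducible targets were the list with the largest negative median among those of at least 15 tested members. Of 20 tested, 2 were higher and 18 lower, with a median of -0.70. The groups did not overlap for 2 on the lower side (10%, near the 9.02% of all genes in either direction), and none was called by limma. Ppara, the receptor gene itself (ENSMUSG00000022383, GRCm38 chr15:85734983-85802819, plus strand), had 1191, 1180.0 and 1438 in tumour mice, against 2954, 2757 and 1757 in PBS mice, a difference of -0.94 (SE 0.22). Cyp4a32, an omega-hydroxylase of fatty acids with near-identical neighbours (ENSMUSG00000063929, GRCm38 chr4:115600969-115621602, plus strand), had 251, 193 and 142 in tumour mice, against 663, 481 and 295 in PBS mice. Those were the members without overlap.

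The other targets separated the PBS mice from each other. Pdk4, the kinase that shuts off pyruvate dehydrogenase in fasting, had 47.8, 45.4 and 36.3 in tumour mice, against 405, 399 and 44.9 in PBS mice. PBS replicates 4 and 5 were high, and PBS replicate 6 was at the level of the tumour mice. Acot1, a fatty acyl-CoA hydrolase, had 151, 45.4 and 101 in tumour mice, against 423, 778 and 120.1 in PBS mice, and Cyp4a10 had 2249, 2702 and 1251 in tumour mice, against 7083, 4309.6 and 2243 in PBS mice, with PBS replicate 6 inside the tumour range in both. Angptl4, an inhibitor of lipoprotein lipase, had 1291, 1053 and 2547 in tumour mice, against 3728, 3513 and 768 in PBS mice, where PBS replicate 6 was the lowest of all. Without PBS replicate 6 limma called Pdk4 lower (-2.16 with all mice and -3.20 without it, adjusted p = 0.00733). The other genes called without that mouse were Setdb2, with 188, 211 and 229 in tumour mice, against 723, 834 and 219 in PBS mice, and Phf11c, with 69.2, 58.9 and 57.3 in tumour mice, against 408, 267 and 35.6 in PBS mice. The list's median under the alternatives was -1.21 to -0.46. Without PBS replicate 5, 5 members were higher. Fatty acid oxidation and ketogenesis genes had 23 of 30 lower and a smaller median of -0.10. There were 4 without overlap on the lower side (13.3%, beside 9.02% of all genes in either direction). Ehhadh, a bifunctional enzyme of peroxisomal fatty acid oxidation, had 4228, 5355 and 5524 in tumour mice, against 8994, 5926 and 6455 in PBS mice without overlap.

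Genes under insulin control also differed between mice of a group. Igfbp1, an insulin-like growth factor binding protein, had 5819.5, 604 and 2424 in tumour mice, against 15460.2, 12112 and 3684 in PBS mice. Irs2, an adaptor of the insulin receptor, had 1396, 87.2 and 584 in tumour mice, against 1676, 2695 and 1740.3 in PBS mice and did not overlap, and Ppp1r3g, which targets a phosphatase to glycogen, had 3453, 126 and 595 in tumour mice, against 5042, 6536 and 2492 in PBS mice. Tumour replicate 2 was the lowest in each, far below the other tumour mice. The labels name no feeding state and no hour of sampling. Core clock genes differed between mice as well: Arntl had 6.10, 173 and 11.7 in tumour mice, against 37.6, 9.02 and 48.8 in PBS mice, and Dbp had 2416, 625 and 2541 in tumour mice, against 1528, 3385 and 2392 in PBS mice, with tumour replicate 2 highest for Arntl and lowest for Dbp. The part of feeding or hour in these values was not tested.

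**Figure D3:**
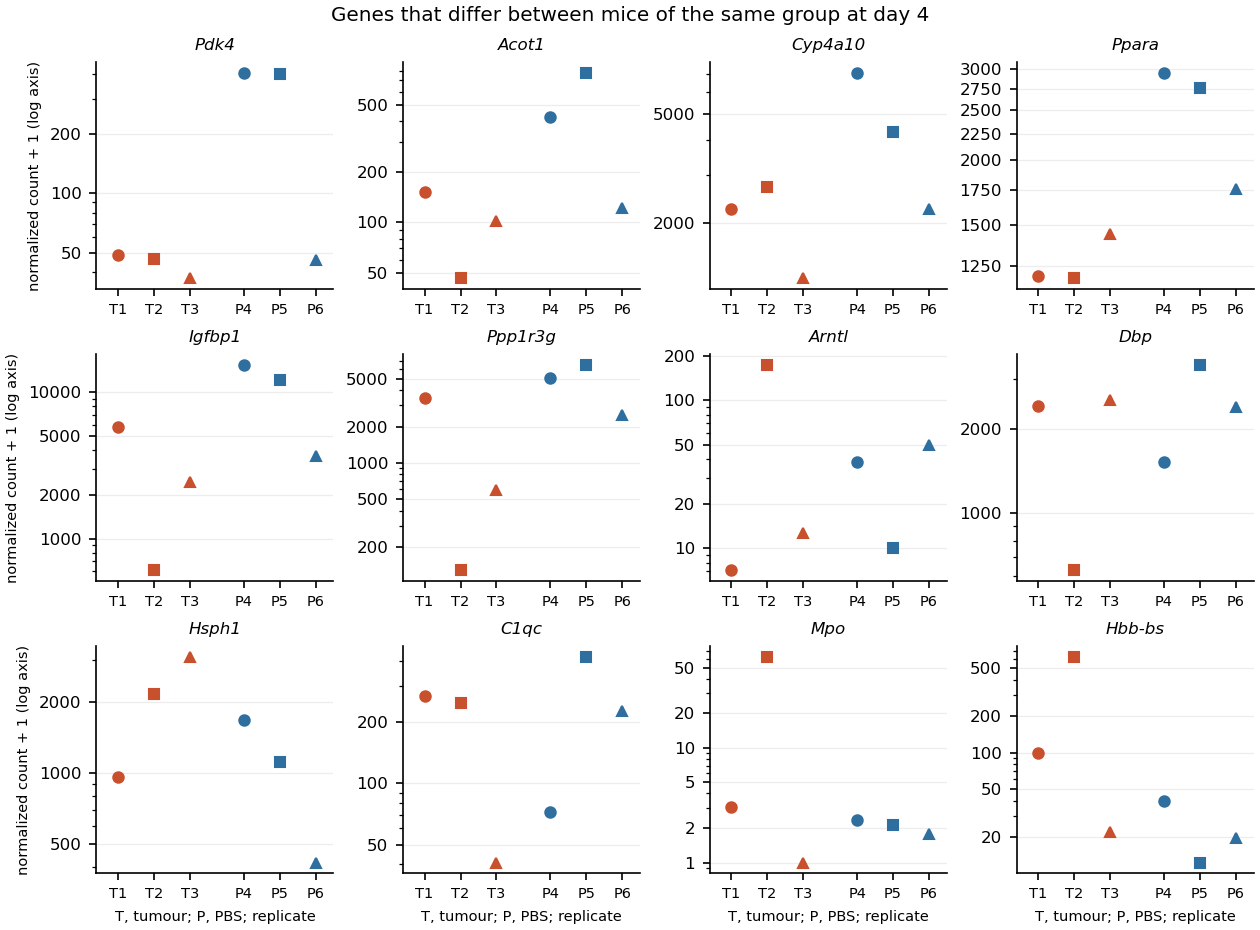
Normalized counts + 1 on log axes for 12 genes in each day 4 library (T, tumour; P, PBS; the number is the replicate). Pdk4 is near 400 in PBS replicates 4 and 5 and under 50 in the other 4 mice, and Arntl, Mpo and Hbb-bs are highest in tumour replicate 2.

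Immediate-early genes, which cells switch on within minutes of stress, were lower in tumour mice for 20 of 21 tested, with a median of -0.63. The groups did not overlap for 4 of them (19.0%, beside 9.02% of all genes in either direction). Btg2, an antiproliferative gene (ENSMUSG00000020423, GRCm38 chr1:134075170-134079120, minus strand), had 1042, 546 and 587 in tumour mice, against 1105, 1972 and 1622 in PBS mice. Btg1, its relative, had 695, 582 and 687 in tumour mice, against 1313, 1100.2 and 871 in PBS mice. Klf6, a zinc finger factor, had 60.0, 78.6 and 71.4 in tumour mice, against 126, 113 and 127 in PBS mice, and Dusp1, a phosphatase of MAP kinases, had 2714, 2439.7 and 2459 in tumour mice, against 3112, 3846 and 4355 in PBS mice. Egr1, a zinc finger factor of the serum response, had 162, 179 and 1081 in tumour mice, against 282, 679.8 and 1329 in PBS mice and overlapped. PBS replicate 5 held the highest value of 12 members and tumour replicate 2 the lowest of 11.

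Growth factor receptors had a lower list mean in each tumour mouse. The means were 9.19, 9.10 and 9.09 in tumour mice, against 9.40, 9.41 and 9.29 in PBS mice, and the median log2 fold change over 18 tested members was -0.19. Erbb3 and Erbb4 were the 2 members without overlap (11.1%, near the 9.02% of all genes in either direction). Erbb4, the related neuregulin receptor, had 18.3, 50.3 and 39.8 in tumour mice, against 84.5, 76.7 and 83.7 in PBS mice, a difference of -1.27 (SE 0.37). Egfr, the partner receptor, had a higher mean in tumour mice, with 5258, 4148 and 1949 in tumour mice, against 2655, 3694 and 1291 in PBS mice, and overlapped. At day 21 limma called Egfr higher (2.48, adjusted p = 0.0212), while Erbb3 had -0.63 and an adjusted p of 0.0795. Tgfbr2, a receptor of transforming growth factor beta that sinusoidal cells also express, had 458, 155 and 248 in tumour mice, against 423, 484 and 406 in PBS mice. Met, the receptor of hepatocyte growth factor, had 1557, 1644 and 1494 in tumour mice, against 2309, 1522 and 1643 in PBS mice.

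**Figure D4:**
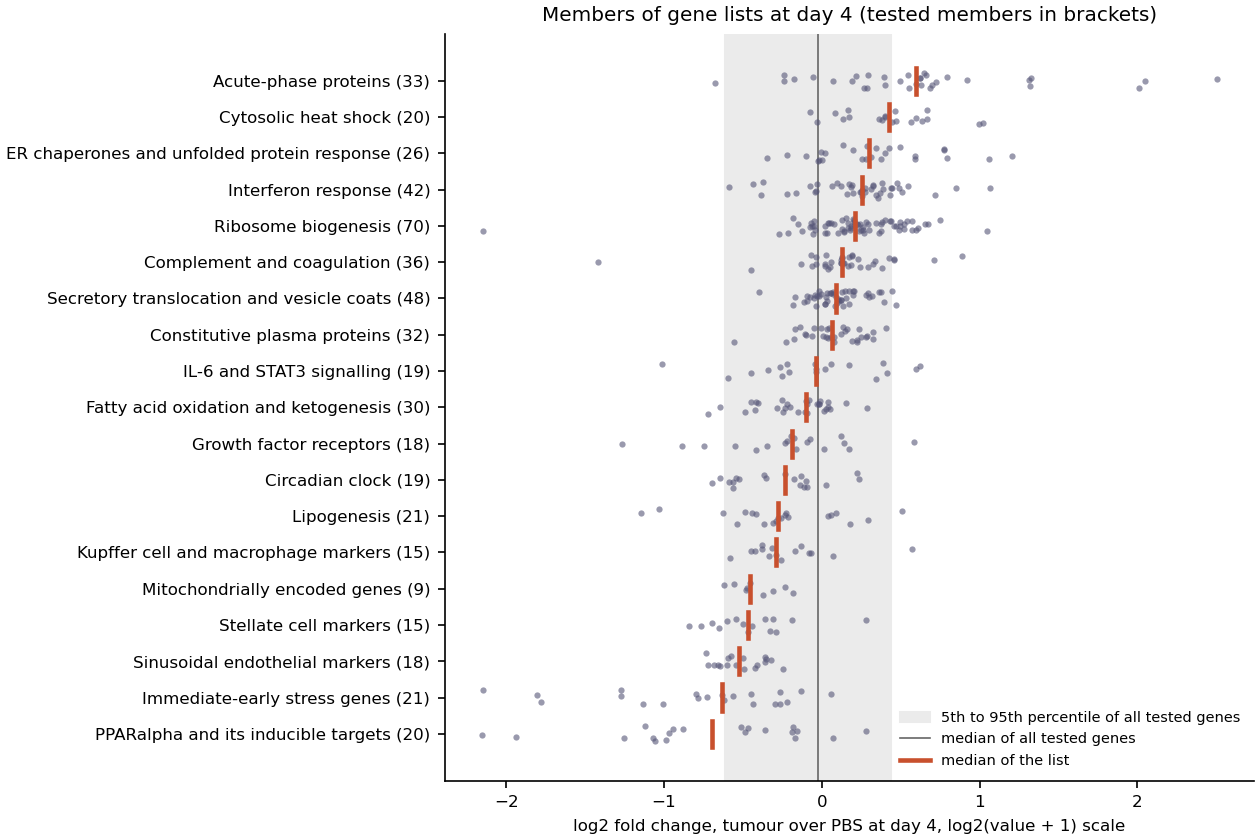
Log2 fold changes of the tested members of 19 gene lists at day 4 (points), the median of each list (bars) and, in grey, the 5th to 95th percentile and the median of all 12038 tested genes. Medians run from 0.60 for acute-phase genes to -0.70 for PPARalpha and its targets.

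The hepatocyte programme itself showed small differences. Hnf4a, the nuclear receptor named in the study's title, had 10659, 11957 and 13388 in tumour mice, against 11205, 9519 and 9728 in PBS mice, with an unadjusted p of 0.221 in limma and an overlap through PBS replicate 4. Its interval on the log2 scale was -0.17 to 0.65. The 26 hepatocyte transcription factors had a median of -0.17 and 1 member without overlap (3.85%, below the 9.02% of all genes in either direction). Urea cycle genes had a median of 0.13 and 0 without overlap, and bile acid genes had -0.13. Cytochrome P450 genes of families 1 to 3 had 24 of 40 lower, a median of -0.09 and 0 without overlap. At day 21, 11 of these 40 were called lower by limma, against 1.86% of all genes.

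Markers of other liver cells varied between mice. All 18 sinusoidal endothelial markers were lower in tumour mice on average, with a median of -0.52 and 0 without overlap. Their summed counts were 3744, 3723 and 2335 in tumour mice, against 2913, 6024 and 5691 in PBS mice. Stab2, a scavenger receptor of these cells, had 357, 471 and 314 in tumour mice, against 456, 553 and 590.5 in PBS mice. Of 15 tested stellate cell markers, 14 were lower, with a median of -0.47, and the sums were 2325, 2742 and 1191 in tumour mice, against 1431, 3779 and 3893 in PBS mice. PBS replicates 5 and 6 were the highest and tumour replicate 3 the lowest in both lists, while PBS replicate 4 lay inside the tumour range. In bulk RNA fewer cells of a type and less RNA per cell cannot be told apart. Of the 13 T and NK cell markers in the table, 0 were tested. Mpo, an enzyme of myeloid precursors, had 2.03, 61.4 and 0 in tumour mice, against 1.34, 1.13 and 0.77 in PBS mice, and the adult beta-globin gene Hbb-bs had 98.7, 624 and 21.1 in tumour mice, against 38.9, 11.3 and 18.6 in PBS mice; its close neighbour Hbb-bt may share reads with it. Tumour replicate 2 carried most of both, as it did for the neutrophil sum. Without that replicate, 31 of the 33 acute-phase genes had a higher mean in tumour mice, beside 28 with all 6 libraries. These are counts of signs only. The part of such other cells in the hepatocyte values of that mouse was not tested.

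The differences of day 4 were set beside those of day 21, where 3 other tumour mice were compared with 3 other PBS mice. No library is shared between the 2 comparisons. Over the same 12038 genes limma called 340 higher (2.82%) and 224 lower (1.86%) at day 21. Of the 340, 53.2% had a positive log2 fold change at day 4 and 8.82% were without overlap on the higher side, with a median of 0.05. Of the 224, 25% were positive at day 4 and 14.3% were without overlap on the lower side, with a median of -0.16. Over all genes the Pearson correlation of the 2 sets of log2 fold changes was 0.13, across genes that are not independent replicates.

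The lists differed in how the days compared. Of the 33 acute-phase genes, 26 were called higher at day 21, with a median of 1.65, beside 0.60 at day 4. Lcn2 had 12692, 25195 and 8611 in tumour mice of day 21, against 402, 69.4 and 369.6 in PBS mice of day 21, and its log2 fold change was 6.0 there (limma adjusted p = 0.00175). Neutrophil markers were also higher there: all 5 tested, of which Lcn2 itself is 1, were called, with a median of 10.52. S100a9 had 23327, 4781 and 3785 in tumour mice of day 21, against 1.74, 5.61 and 6.36 in PBS mice of day 21. Their part in the day 21 values of Lcn2 and the other acute-phase genes was not tested. Limma called the difference between the days for 1 gene of all tested (0.00831%), and for no acute-phase gene. For ER chaperones the median was 0.16 at day 21, with 0 called, beside 0.30 at day 4. Hspa5 had 12631, 12809 and 9632 in tumour mice of day 21, against 8803, 7311 and 12560.4 in PBS mice of day 21. Ribosome biogenesis genes had 0.12 at day 21, with 1 called higher and 1 lower. PPARalpha targets had -1.11, with 6 of 20 called lower. Ppara itself had 1931, 1927 and 2238 in tumour mice of day 21, against 2379.9, 1018 and 1560.2 in PBS mice of day 21, where the groups overlapped. The 1 gene called for a difference between days, Ngp, is on the neutrophil list. In the acute-phase, ER chaperone, ribosome biogenesis and PPARalpha lists limma called no difference between days. By that limma fit, larger values on 1 day are not shown to differ from the other for these 4 lists. DESeq2 called many more differences between days, as given below. Whether members of these lists are among its calls is not given here.

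**Figure D5:**
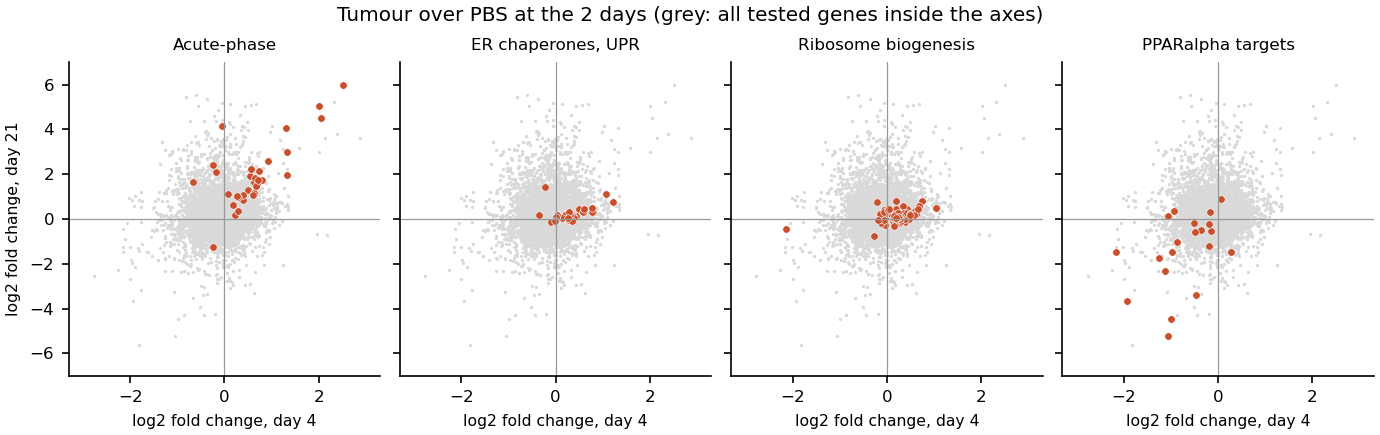
Log2 fold change of tumour over PBS at day 4 (horizontal) and day 21 (vertical), with all tested genes inside the axes in grey and the members of 1 list per panel in colour. Acute-phase genes spread up to 2.50 at day 4 and 6.0 at day 21 (Lcn2). The medians at day 4 and day 21 are 0.60 and 1.65 for acute-phase genes, 0.30 and 0.16 for ER chaperones, 0.21 and 0.12 for ribosome biogenesis, and -0.70 and -1.11 for PPARalpha targets.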

How the data were processed

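PolyA RNA sequencing of dissociated hepatocytes was used, with 3 mice per group. The authors deposited a table of gene counts divided by library size factors, a signal that was not scaled to gene length. Per the submitters' processing notes, cutadapt, STAR 2.4.2a, HTSeq and DESeq2 were used on GRCm38; annotation and strand setting are not given in these notes, so overlapping and antisense genes cannot be told apart. The low values were multiples of the value of 1 read, and dividing by it gave whole reads within 0.1 for at least 99.99% of the values of each library. Every library was assigned by its own label. The authors' fold change and p columns were not used. Positions are from GENCODE M21, which 15892 of the 15910 identifiers matched; 10 symbols are repeated in the table and were tracked by identifier.

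Genes reaching a mean of 10 over the 6 day 4 libraries were taken to log2(value + 1) and tested with limma 3.58.1 (trend and robust) in R 4.3.3, with Benjamini-Hochberg adjustment over all 12038 genes and a threshold of 0.05. The design had 1 mean per group and no covariate. The difference between days was fitted on all 12 libraries. EdgeR 4.0.16 and DESeq2 1.42.0 on recovered reads, other pseudocounts, filters and scalings, and each library left out were the alternatives. The procedure was tested on simulated data. This log2 scale understates differences of genes with few reads, and depth limits such genes most.

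The members and the 50 gene lists were chosen with earlier results of these data known. Lists are therefore described by counts and medians with no test, beside the same over all tested genes; a list level is the mean of log2(value + 1) over its tested members. Named genes were Hnf4a, the 12 genes each way with the smallest p among non-overlapping genes whose mean reached 50, up to 4 members per list by p, and genes called by another tool. Further list members are named for their role. Promoter windows are from RefSeq (GRCm38.p6).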

Additional observations from a re-analysis of the deposited data

Results flagged for a closer look

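One gene of the 12038 (0.00831%) had a tumour effect that differed between the days in limma. For Ngp, which encodes neutrophilic granule protein, the log2 fold change of day 21 minus that of day 4 was 11.50 (adjusted p = 0.0337). At day 4 Ngp had 7.12, 46.7 and 2.34 in tumour mice, against 6.71, 9.02 and 13.2 in PBS mice, a log2 fold change of 0.08, and at day 21 the log2 fold change was 11.58. Tumour replicate 2 was the highest of the day 4 mice. The gene was chosen after its values were seen, and the part of neutrophils in the sample was not tested.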

How the results depend on the processing

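No paired analysis was possible because the groups share no replicate numbers. At day 4, the other limma settings and scalings, edgeR and the 12-library fit left the count of called genes at 0, while DESeq2 called 4 higher and 2 lower. Leaving out 1 library at a time gave 0 to 1 higher and 0 to 3 lower; the calls came without tumour replicate 3 and without PBS replicate 6. For the difference between days, 1 gene was called higher and 0 lower. The count of higher genes was 0 with a pseudocount of 0.5, with a mean of at least 50, in edgeR and in limma without trend and robust; it was 12 with a pseudocount of 4. With no filter on low values 158 were higher and 8 lower, and in DESeq2 259 were higher and 58 lower. Leaving out 1 library gave 0 to 21 higher and 0 to 29 lower, both at their highest without tumour day 21 replicate 9a. Ngp, the gene called in the main fit, had a mean of 14.2 over the day 4 libraries. It was therefore not in the fit with a mean of at least 50. Genes with a mean under 10 over the day 4 libraries entered only with no filter. The cause of the shifts was otherwise not tested.

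Of the genes named above, 11 changed the sign of the day 4 difference under some alternative, and every other tested gene named kept it. Arntl had 0.98 in edgeR and 0.996 in DESeq2, which compare means of counts, against -0.10 on the log scale. With 1 library left out at a time, the log2 fold change was -1.50 to 0.81 for Arntl, -0.23 to 0.0625 for Atf6, -0.91 to 0.10 for Dbp and -0.59 to 0.0334 for Hamp. It was -0.54 to 1.54 for Hspa1b, -0.93 to 0.0078 for Il6ra, -0.25 to 2.73 for Mpo and -0.85 to 0.26 for Mt1. It was -0.98 to 0.93 for Ngp, -0.75 to 0.31 for Socs3 and -0.38 to 0.22 for Syngr1. The medians of the acute-phase, ER chaperone, interferon, ribosome biogenesis and PPARalpha lists kept their sign throughout. With 3 mice per group, intervals are wide for genes that vary between mice, and low counts limit the neutrophil, mammary and lymphocyte markers most.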

Other observations

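Further groups of genes at day 4 are given as values. All 9 tested mitochondrially encoded genes had a lower mean in tumour mice, with a median of -0.46 and 1 without overlap. The mitochondrial share of the reads was 6.01%, 7.04% and 5.40% in tumour mice, against 8.34%, 8.42% and 6.69% in PBS mice, so only tumour replicate 2 reached the PBS range. The 41 nuclear oxidative phosphorylation genes had a median of -0.04. Lipogenesis genes had 15 of 21 lower and a median of -0.28. Scd1, the desaturase that makes oleate, had 13542, 15676 and 43497 in tumour mice, against 39214, 43986 and 57796 in PBS mice. Apolipoprotein and lipoprotein genes had 19 of 24 lower and a median of -0.18, and the growth hormone axis had 13 of 16 lower and a median of -0.28. Core clock genes had 16 of 19 lower, with a median of -0.23 and 1 without overlap, Cry2, a repressor of the clock, with 573, 394 and 704 in tumour mice, against 830.4, 1034 and 705 in PBS mice.

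Of 42 tested phase II conjugation enzymes, 17 were called lower at day 21, against 1.86% of all genes. At day 4, 3 were without overlap (7.14%, beside 9.02% of all genes in either direction), Nnmt, Gstz1 and Gsta1. Nnmt, which methylates nicotinamide, had 2561, 1837 and 2224 in tumour mice, against 1572, 507 and 497 in PBS mice. Gsta1, a glutathione transferase with near copies, had 7.12, 4.91 and 4.68 in tumour mice, against 21.5, 13.5 and 14.7 in PBS mice. Gstz1, which acts in tyrosine breakdown, had a log2 fold change of 0.10. None was called by limma. The group's median at day 4 was -0.06. Cell cycle genes had 12 of 34 higher at day 4 and a median of -0.18. That median was -0.39 to 0.0995 under the alternatives. It changed sign in edgeR, in DESeq2 and without tumour replicate 3, where 19 members were higher. At day 21, 16 of the 34 were called higher, against 2.82% of all genes.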
